A study of Mus musculus with 2 samples.

Results

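The autophagy machinery genes examined here were 35 genes, chosen by their symbols in the GENCODE M21 annotation from the 55536 genes that the deposited tables name. All 35 were found. They were measured by sequencing polyadenylated RNA of primary regulatory T cells (Treg cells, the CD4 lineage that holds immune responses in check under the control of Foxp3) from a male adult mouse aged 9 weeks. The strain is named Foxp3GFP-DTRCD4CreERT2R26tdTomato, which lists alleles at Foxp3 (green fluorescent protein with the diphtheria toxin receptor), at CD4 (a tamoxifen-inducible Cre recombinase) and at the R26 locus (the red fluorescent protein tdTomato). The labels gave no treatment, no tissue beyond the whole organism, no purification method and no statement on pooling of animals. There were 2 libraries, technical replicates 1 and 2 of biological replicate 1, with 20891069 and 18571065 expected counts over named genes. Pairs of values below are in the order replicate 1, replicate 2. With 1 group, no conditions could be compared, and a p-value here sets the difference of 2 libraries against their counting error alone, and that difference may be technical.

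Autophagy encloses cytoplasm in a double membrane and delivers it to lysosomes. A kinase complex built on ULK1 or ULK2 starts the process, a lipid kinase complex marks the site with the phosphoinositide PI3P, lipids are moved into the growing membrane, and ubiquitin-like conjugation reactions attach proteins of the ATG8 family to it. Cargo receptors bind both cargo and the ATG8 proteins. In mice, loss of Atg5 or Atg7 in Treg cells has been reported to impair their survival and lineage stability.

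The transcript results turn on exon boundaries in a few members, and these are shown first, as spliced RNA sequence 5′ to 3′ on the mouse build mm10. Gabarap (chr11:69991143-69994951, plus strand) encodes a founding member of an ATG8 subfamily. In the lines below the capitals are the end of its shared exon, at base 69992443 of chromosome 11, and the lower-case letters are what follows in each transcript model.
Gabarap-201: CTTCTGATCTTACAGttggtcaattctact
Gabarap-202: CTTCTGATCTTACAGtgccacgatgggtca
Gabarap-204: CTTCTGATCTTACAGgtgagggcttgacct
Gabarap-201 and Gabarap-202 are annotated as protein coding, with 351 and 318 coding bases. They join this exon to different downstream exons, while Gabarap-204 reads on into the intron. For Gabarapl2 (chr8:111940703-111953612, plus strand), another ATG8 gene, the capitals are the start of the second exon, at base 111941160 of chromosome 8.
Gabarapl2-201: aggaccactctctggAACACAGATGCGTGG
Gabarapl2-203: tttcttcttccccagAACACAGATGCGTGG
The lower-case letters are the first exon in Gabarapl2-201 and intron in Gabarapl2-203. For Becn1 (chr11:101285952-101302286, minus strand), which encodes the scaffold Beclin 1, an exon ends at base 101296258 of chromosome 11 in the full-length coding model and runs 64 bases further in another model. Capitals mark the first bases of that extension.
Becn1-201: catccccccagccagGTGCTTACTATTCCT
Becn1-205: catccccccagccaggatgatgtctacaga

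Most of the machinery was present in these cells. Of the 35 genes, 32 (91.4%) had at least 1 TPM (a transcript level scaled for length and depth) in both libraries, which is called detected here, against 10472 of 22028 protein-coding genes (47.5%). The exceptions were Wipi1, Atg4c and Optn. The median of the detected members was 34.9 TPM, against 25.5 TPM for all detected protein-coding genes. By mean TPM, 5 members were at 100 or more (Gabarap, Sqstm1, Map1lc3b, Gabarapl2 and Becn1), 23 between 10 and 100, 5 between 1 and 10, and 2 below 1. In bulk RNA, fewer cells expressing a gene and less RNA per cell cannot be told apart. Gene levels and their ratios below cover all annotated transcript models of a gene, coding and non-coding, unless coding models are named.

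The RNA carried the defining markers of the labelled cells. All 7 Treg and T cell markers were detected, Foxp3 at 88.6 and 83.6 TPM and Il2ra at 325 and 315 TPM. Of 18 markers of other cell types, 6 were detected. The 18 summed to 169 and 181 TPM, mostly from the haemoglobin genes Hbb-bs (66.7 and 79.5 TPM) and Hba-a2 (65.8 and 73.6 TPM). Also detected were Lyz2 (10.4 and 6.94 TPM) and C1qb (8.25 and 7.0 TPM) of monocytes or macrophages. So were Cd79a of B cells (5.89 and 6.29 TPM) and Klrb1c of natural killer cells (6.38 and 3.87 TPM). At 0 in both libraries were 3 (S100a8, Ly6g and Cdh5). The part of such other cells in the autophagy values was not tested.

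**Figure D1:**
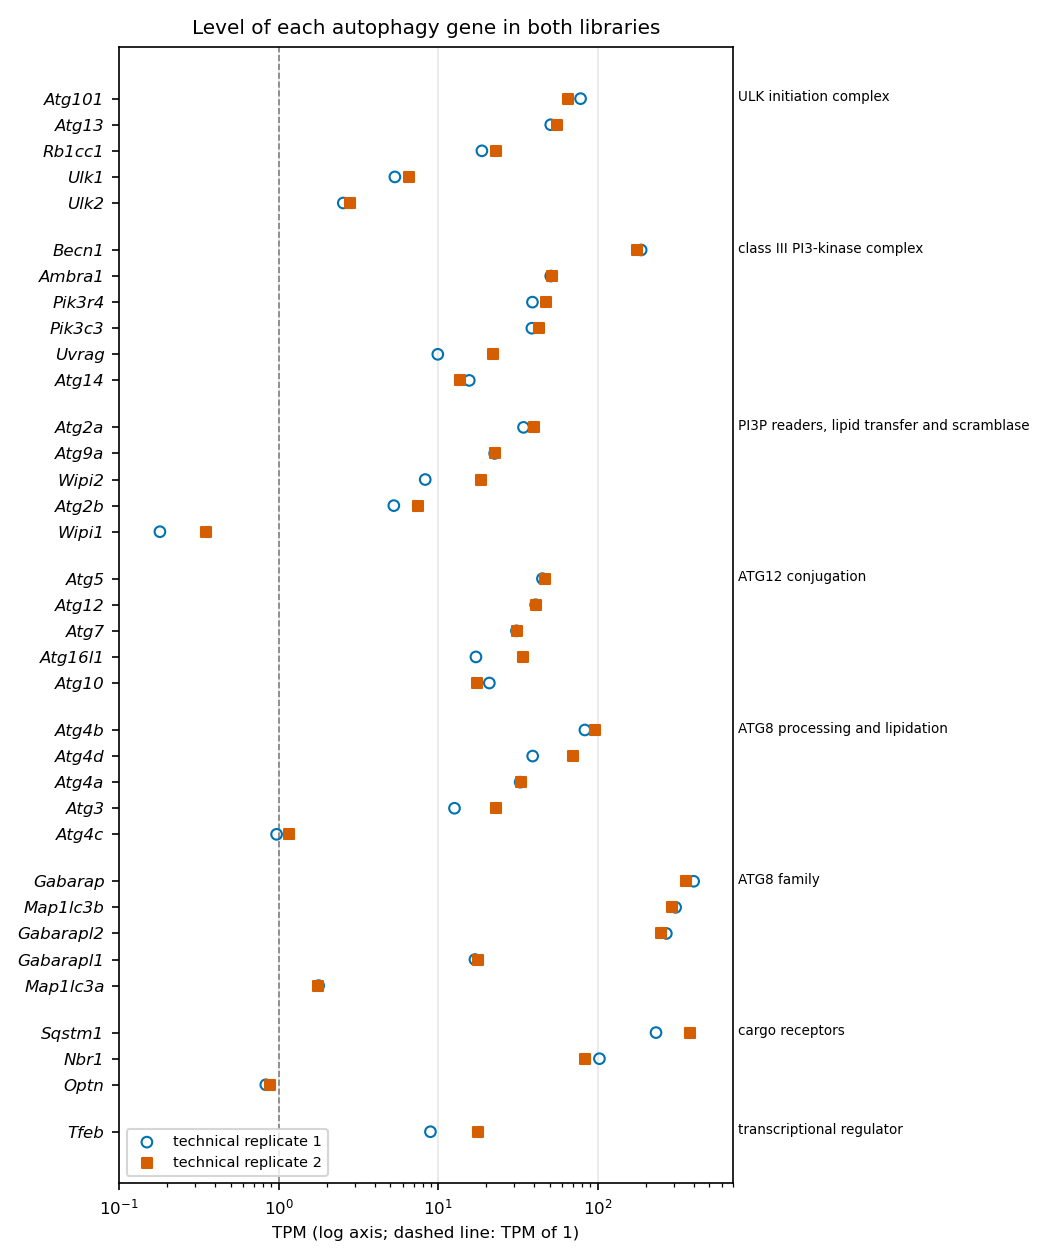
TPM of each of the 35 genes (log axis) in technical replicate 1 (open circles) and technical replicate 2 (squares), grouped by role, with a dashed line at a TPM of 1. The ATG8 genes Gabarap, Map1lc3b and Gabarapl2 lie between 249.96 and 399.5 TPM, while Wipi1 and Optn lie below 1 TPM in both libraries.

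Among the initiation genes, the non-catalytic subunits stood above the kinases. Atg101, a subunit that binds and stabilises ATG13, was at 78.1 and 65.5 TPM. Atg13, the adaptor of the complex, was at 50.8 and 55.4 TPM. Rb1cc1, whose product FIP200 is the scaffold, was at 18.8 and 23.1 TPM. The kinase gene Ulk1 was at 5.35 and 6.55 TPM and its paralog Ulk2 at 2.54 and 2.78 TPM. The order of these 5 genes was therefore the same in both libraries. Atg101 was 14.6 and 9.99 times the level of Ulk1, and Ulk1 was 2.11 and 2.36 times the level of Ulk2.

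By whole-gene TPM, Becn1 led the lipid kinase genes. It was at 187 and 175 TPM (181 ± 8.34 TPM, SD, n = 2), rank 864 among protein-coding genes. Ambra1, a regulator that binds Beclin 1, was at 50.8 and 51.6 TPM. Pik3r4, the regulatory subunit VPS15, was at 39.0 and 47.2 TPM. Pik3c3, the catalytic subunit VPS34, was at 38.6 and 43.1 TPM. The catalytic and regulatory subunits were thus close to each other, with Pik3c3 at 0.992 and 0.912 times Pik3r4. Becn1 was 4.84 and 4.07 times Pik3c3. In protein-coding models alone Becn1 was lower than these 3 genes, at 20.8 and 15.95 TPM. There Ambra1 was at 47.9 and 48.6 TPM, Pik3c3 at 37.8 and 43.1 TPM and Pik3r4 at 30.5 and 30.4 TPM. Atg14 and Uvrag encode alternative subunits, of the autophagosome-forming and the endosomal form of the complex. Atg14 was at 15.7 and 13.6 TPM and Uvrag at 9.94 and 22.1 TPM. Their order differed between the libraries, with Uvrag at 0.635 times Atg14 in replicate 1 and 1.62 times Atg14 in replicate 2. In protein-coding models alone Uvrag was lower in both, at 1.22 and 3.15 TPM against 15.2 and 13.4 TPM for Atg14.

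Genes that act after PI3P is made spanned a wide range, and the paralogs were unequal. Atg2a, which encodes a lipid transfer protein, was at 34.3 and 39.8 TPM, against 5.27 and 7.45 TPM for its paralog Atg2b. Atg9a, the lipid scramblase of the seed vesicles, was at 22.6 and 22.8 TPM. Of the PI3P-binding proteins, Wipi2, which recruits ATG16L1, was at 8.29 and 18.6 TPM. Wipi1 had 5 and 10 counts, or 0.18 TPM (95% exact Poisson interval 0.0584 to 0.420) and 0.35 TPM (0.168 to 0.644). These intervals cover counting error only. In both libraries Wipi1 lay below every other member, and Wipi2 was 46.1 and 53.1 times its level.

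The genes of the ATG12 conjugation reaction lay close together. Atg5, the acceptor of ATG12, was at 45.0 and 46.8 TPM. Atg12 itself was at 40.8 and 41.0 TPM. Atg7, the E1-like enzyme shared by both conjugation reactions, was at 31.0 and 31.2 TPM. Atg10, the E2-like enzyme for ATG12, was at 20.9 and 17.6 TPM. Atg16l1, which targets the conjugate to the membrane, was at 17.2 and 34.1 TPM. Atg5 was 1.10 and 1.14 times Atg12. The ratio of Atg5 to Atg16l1 was 2.61 in replicate 1 and 1.37 in replicate 2.

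The protease genes that trim and recycle ATG8 proteins differed in whole-gene level. Atg4b was highest, at 83.1 and 95.5 TPM, followed by Atg4d at 39.1 and 69.6 TPM and Atg4a at 32.7 and 33.1 TPM. Atg4c, at 0.97 and 1.16 TPM from 36 and 26 counts, sat at the detection threshold. Atg4d lay near Atg4a in replicate 1 and above it in replicate 2. The order differed in protein-coding transcript models alone. There Atg4a was at 28.1 and 29.3 TPM, Atg4b at 26.5 and 25.4 TPM and Atg4d at 4.42 and 5.63 TPM. Atg3, the E2-like enzyme that attaches ATG8 proteins to lipid, was at 12.7 and 23.0 TPM.

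The ATG8 family genes, whose lipidated products coat the autophagosome, included the highest mean level among the 35, although in replicate 2 Sqstm1 stood above them. Gabarap was at 399.5 and 359 TPM (379 ± 28.8 TPM, SD, n = 2), rank 337 among protein-coding genes. Map1lc3b, which encodes LC3B (chr8:121590361-121598760), was at 308 and 291 TPM, rank 453. Gabarapl2 was at 269 and 249.96 TPM, rank 556. By whole-gene TPM the order of these 3 genes was the same in both libraries. Gabarapl1 was far lower, at 17.0 and 17.8 TPM, and Map1lc3a had 19 and 16 counts, or 1.78 and 1.76 TPM. Of the family's summed TPM, Gabarap held 40.1% and 39.0%, Map1lc3b 30.9% and 31.7%, Gabarapl2 27.1% and 27.2%, Gabarapl1 1.71% and 1.93%, and Map1lc3a 0.179% and 0.191%. Map1lc3b was 173 and 166 times Map1lc3a. In protein-coding models alone Map1lc3b led, at 304 and 287 TPM, ahead of Gabarap at 293 and 236 TPM. Gabarapl2 was at 60.6 and 56.4 TPM in such models. The deposited posterior SD of the count was at most 43.9 over the 35 genes, for Map1lc3b with 6164 counts, and 19 members had a posterior SD of 0 in both libraries.

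Among the cargo receptor genes, Sqstm1 (chr11:50199366-50210827, minus strand), which encodes the ubiquitin-binding receptor p62, was at 232 and 381 TPM (307 ± 106 TPM, SD, n = 2). Nbr1, a related receptor, was at 103 and 83.2 TPM. Optn, which encodes optineurin, was at 0.83 and 0.88 TPM from 24 and 25 counts. Sqstm1 stood above Nbr1 in both libraries, at 2.26 and 4.58 times its level. The TPM of Nbr1 differed more than its scaled counts, which are given below. The mean transcript length given for Nbr1 was 2813 bases in replicate 1 and 3458 in replicate 2. Tfeb, a transcription factor that switches on lysosomal and autophagy genes, was at 8.94 and 17.7 TPM.

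The libraries differed for some of these genes by more than counting error. Each gene's expected counts were compared with a two-sided exact binomial test, with Benjamini-Hochberg adjustment over all 16553 genes that had at least 10 counts over both libraries, and a gene is called at an adjusted p under 0.05. All 35 members entered. The log2 ratio below is of scaled counts, replicate 2 over replicate 1, with its counting SE. In replicate 2, 14 members were higher (40% of members, against 21.6% of all tested genes) and 4 were lower (11.4%, against 13.0%), while 17 were not called. With library sizes from total counts, or with the GC trend removed, the split was 11 higher and 6 lower. Both directions together made 18 of 35 (51.4%), against 34.7% of all tested genes. Calls were more frequent among well-covered genes: among the 9903 genes averaging 100 counts or more, 48.9% were called, and among the 31 members with as many counts, 18 were called (58.1%). The members' median log2 ratio was 0.06 and that of all tested genes 0.02. Their median absolute log2 ratio was 0.15, against 0.24 for all tested genes and 0.165 for genes averaging 100 counts or more.

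**Figure D2:**
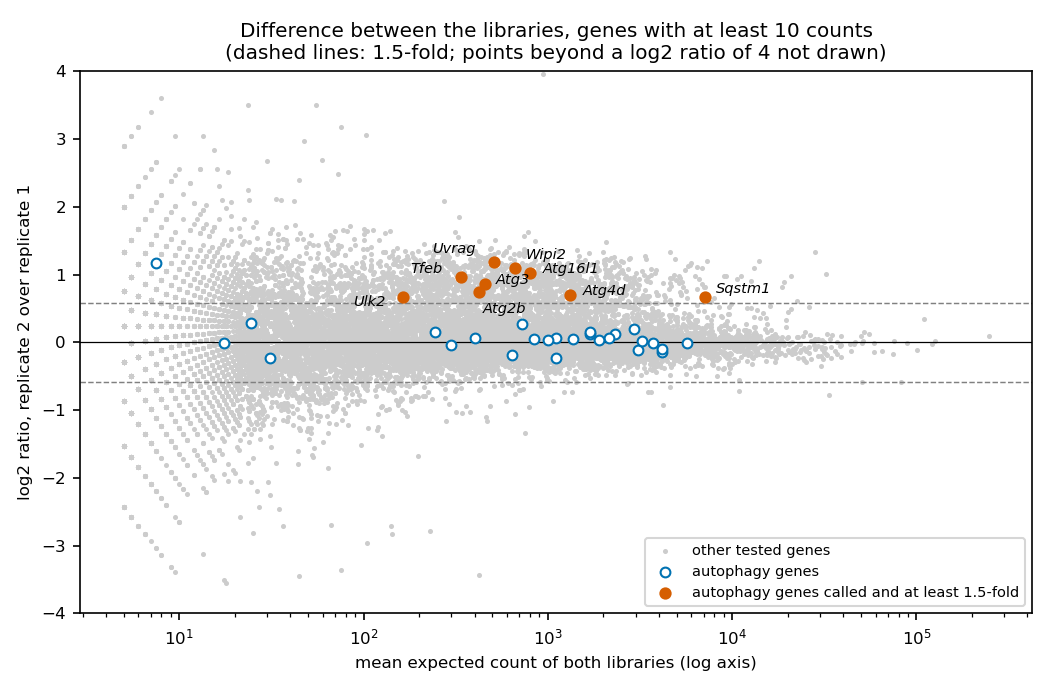
Log2 ratio of each tested gene between the libraries (replicate 2 over replicate 1) against its mean expected count (log axis), with the 35 autophagy genes as large symbols and dashed lines at 1.5-fold. The 9 filled symbols are the autophagy genes called at an adjusted p under 0.05 and at least 1.5-fold apart, all above 0, from Ulk2 and Sqstm1 at 0.67 to Uvrag at 1.19, and no autophagy gene was called below the lower line.

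Of the 18 called members, 9 were at least 1.5-fold higher in replicate 2 (25.7% of members, against 11.7% of all tested genes) and 0 were at least 1.5-fold lower (background 2.98%). Among genes averaging 100 counts or more, 14.5% were at least 1.5-fold higher. The 9 genes came from 7 of the 8 role groups, the ATG8 family being without one.

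Uvrag had the largest called ratio, with 348 and 677 expected counts and a log2 ratio of 1.19 ± 0.10 (exact binomial test, adjusted p = 8.2e-37). Wipi2 had 469.97 and 858 counts and a log2 ratio of 1.10 ± 0.08 (adjusted p = 6.24e-41). Atg16l1 had 589 and 1017 counts and a log2 ratio of 1.02 ± 0.07 (adjusted p = 8.65e-43). In fold terms these 3 genes were 2.29, 2.15 and 2.03 times higher in replicate 2. Tfeb had 253 and 420.0 counts and a log2 ratio of 0.96 ± 0.11 (adjusted p = 1.56e-16). Atg3 had 359 and 553 counts and a log2 ratio of 0.86 ± 0.10 (adjusted p = 9.64e-18). Its E1-like partner Atg7, with 1170.0 and 1040.0 counts, was not called (log2 ratio 0.06).

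Atg2b had 349 and 498 counts and a log2 ratio of 0.75 ± 0.10 (exact binomial test, adjusted p = 9.38e-13), while its more abundant paralog Atg2a had a log2 ratio of 0.19. Atg4d had 1109 and 1538 counts and a log2 ratio of 0.71 ± 0.06 (adjusted p = 1.75e-34). Sqstm1 had the most counts of the 9, 6075 and 8212, and a log2 ratio of 0.67 ± 0.02 (adjusted p = 5.76e-165). In the older gene table its log2 ratio was 0.29 (adjusted p = 6.16e-10). Ulk2 had the fewest counts, 140.0 and 189, with a log2 ratio of 0.67 ± 0.16 (adjusted p = 1.62e-04), and it was not called in the older table (log2 ratio 0.34, adjusted p = 0.262). The TPM of Ulk2 differed less than its counts, and the mean transcript length given for Ulk2 was 3956 bases in replicate 1 and 5729 in replicate 2.

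The other called members differed by less than 1.5-fold. Higher in replicate 2 were Rb1cc1 (0.27), Atg2a (0.19), Pik3c3 (0.15), Atg13 (0.12) and Atg4b (0.12, adjusted p = 0.0494), in log2 units by the exact binomial test. With DESeq2 size factors or total counts, Atg13, Pik3c3 and Atg4b were not called. Atg13 and Atg4b were also not called with the GC trend removed, nor was Atg4b with posterior mean counts. Lower were Atg101 (-0.23), Gabarap (-0.14), Gabarapl2 (-0.11) and Becn1 (-0.10). The sign was the opposite in the older gene table for Atg13 (-0.03), Pik3c3 (-0.01) and Gabarap (0.02), none of them called there, and for Atg2a after the GC trend was removed (-0.10, adjusted p = 0.028). The 17 members not called were Ulk1, Pik3r4, Atg14, Ambra1, Wipi1, Atg9a, Atg5, Atg7, Atg10, Atg12, Atg4a, Atg4c, Map1lc3a, Map1lc3b, Gabarapl1, Nbr1 and Optn. With total counts, Atg14 (-0.25) and Map1lc3b (-0.07) were called as lower. Atg14 was also called as lower with DESeq2 size factors (-0.22) and with the GC trend removed (-0.23). Of these 17, the well-covered Map1lc3b had 6164 and 5221 counts and a log2 ratio of -0.01 ± 0.03, and Nbr1 had 4000.0 and 3393 counts and a log2 ratio of -0.00 ± 0.03.

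The exact binomial test takes no account of variation between libraries beyond counting. With an assumed dispersion of 0.01, edgeR's exactTest called 8 members, all higher in replicate 2, against 9.29% of all tested genes higher (10.8% in either direction). These were the 9 genes above without Ulk2. With an assumed dispersion of 0.04 it called 0 members, against 117 of all tested genes (0.707%). At that dispersion 5 of 35 members had an unadjusted p under 0.05, against 1402 of the 16553 tested genes. GC content moved with the ratio over all genes: the median log2 ratio ran from -0.297 in the bin of lowest transcript GC to 0.328 in the highest. The 9 genes had a median GC of 50.6% (range 44.5 to 62.4%), the other members 51.4%, and all 1937 genes at least 1.5-fold higher 52.5%. With the GC trend removed, all 9 were still called and 8 were still at least 1.5-fold higher, against 10.7% of all tested genes, with log2 ratios from 0.56 (Atg4d) to 1.15 (Uvrag). Tfeb, with the highest GC of the 9 at 62.4%, went from 0.96 to 0.64.

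In the transcript tables, several members were assigned mainly to models that do not encode the full protein. All 32 detected members have over 1 annotated transcript. The same transcript led, by share of the gene's TPM, in both libraries for 29 of the 32 (90.6%), against 8329 of 9682 detected protein-coding genes with over 1 transcript (86.0%). The exceptions were Rb1cc1, Atg10 and Map1lc3b. Of the 29 shared leading transcripts, 23 were protein coding and 6 were not, and 9 took at least 90% of their gene in both libraries. Members had a median of 73.1% and 77.1% of their TPM in protein-coding models, against 83.6% and 84.0% for all such genes. The median in retained-intron models was 8.17% and 6.44%, against 4.69% and 4.41%. In 6 of 32 members (18.8%), less than 50% of the TPM was in protein-coding models in both libraries. That share is near the 14.98% of all such genes. These 6 were Becn1, Uvrag, Atg4b, Atg4d, Map1lc3a and Gabarapl2.

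**Figure D3:**
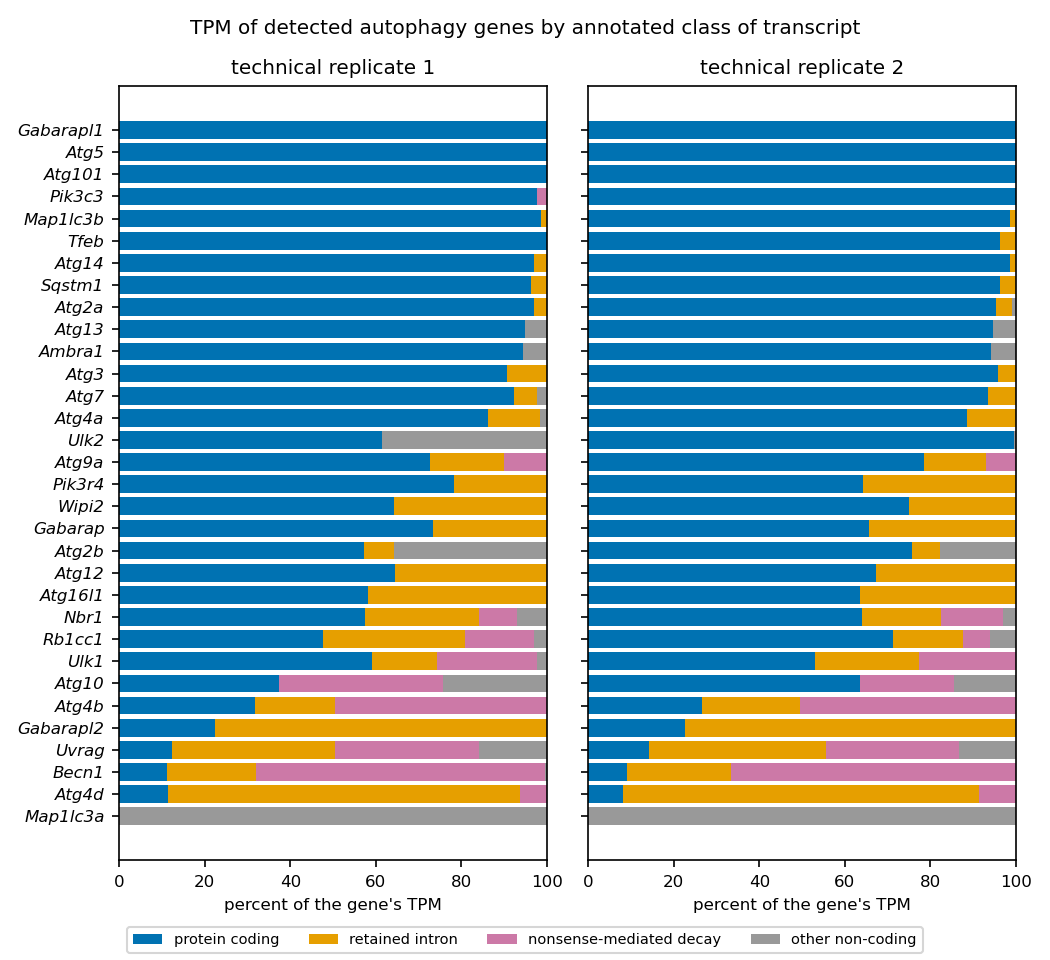
Percent of each detected autophagy gene's TPM in protein-coding, retained-intron, nonsense-mediated decay and other non-coding transcript models, in technical replicate 1 (left) and 2 (right), ordered by the coding share. Gabarapl1, Atg5 and Atg101 are at 100% coding in both panels, and the 6 genes at the foot are under 50% coding in both.

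Of the members with most of their TPM outside protein-coding models, Gabarapl2 had the highest mean level, at 259.7 TPM. Becn1 came next, at 181.3 TPM. Its leading transcript Becn1-201, annotated for nonsense-mediated decay and carrying the 64-base extension shown above, took 47.5% and 48.1% of the gene's TPM, at 88.9 and 84.3 TPM. The full-length coding model Becn1-205, with 1344 coding bases, took 0.54% and 0.50%, at 1.02 and 0.88 TPM. All protein-coding models of Becn1 together took 11.1% and 9.09%. The 2 models also differ at their 3′ end, since Becn1-205 runs to base 101285952 and Becn1-201 to base 101288262 of chromosome 11. The annotated exons of Becn1 share 43.9% of their bases with Cntd1 on the opposite strand, which itself was at 0.27 and 0.28 TPM. Whether the counting used strand is not given in the sources used here, so reads from Becn1 and from an antisense neighbour cannot be told apart.

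In the ATG8 family, coding models did not always hold most of the TPM. Gabarap-202, with 318 coding bases, took 59.5% and 52.4% of the gene's TPM, and Gabarap-201, with 351, took 13.9% and 13.3%. The retained-intron model Gabarap-204 took 26.5% and 34.1%. For Gabarapl2, the retained-intron model Gabarapl2-203 took 77.5% and 77.3% and the coding Gabarapl2-201 took 22.5% and 22.6%. In expected counts these were 2064 and 1618 against 1393 and 1099. Gabarapl2-203 has 749 bases and Gabarapl2-201 has 1677, so the gap is smaller in counts than in TPM. Map1lc3b was spread over coding models of unlike coding length. Map1lc3b-205 (480 coding bases) held 37.5% and 36.5%, Map1lc3b-201 (375 coding bases) held 36.3% and 39.6%, and Map1lc3b-203 (198 coding bases) held 24.3% and 20.7%. Which of the first 2 led differed between the libraries. The few reads of Map1lc3a were all assigned to the non-coding Map1lc3a-202.

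Among the 9 genes at least 1.5-fold higher in replicate 2, the coding part was higher in every one, with no test at this level. These genes were chosen for being higher in replicate 2, so this is a description and no separate support. Sqstm1 went from 223 to 367 TPM in protein-coding models, Atg16l1 from 10.03 to 21.7, Atg3 from 11.5 to 22.1, Tfeb from 8.94 to 17.0 and Wipi2 from 5.33 to 13.9. Atg2b went from 3.01 to 5.65 TPM, Ulk2 from 1.56 to 2.77 and Uvrag from 1.22 to 3.15. Atg4d differed mostly elsewhere, with 32.2 and 58.0 TPM in retained-intron models and 4.42 and 5.63 TPM in protein-coding ones. The exons of Atg4d share 19.3% of their bases with Kri1 on the opposite strand, at 39.7 and 34.0 TPM. Sqstm1 shares 17.3% with Mrnip, at 6.57 and 3.54 TPM, and Uvrag 17.6% with Gm45187, at 0.13 and 0.34 TPM. In all, 11 members share exon bases with another gene on the opposite strand. The part of the overlapping genes in these values was not tested.

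The shares of some single transcripts differed between the libraries. Tfeb-204 held 21.3% of the TPM of Tfeb in replicate 1 and 0 in replicate 2. From posterior means the shares were 13.8% and 3.15%, and the 95% credibility bounds of its level overlapped (0.212 to 3.15 TPM and up to 1.72 TPM). Wipi2-202 held 0 in replicate 1 and 18.1% in replicate 2, or 3.53% and 17.4% from posterior means, with bounds that did not overlap (up to 0.745 TPM and 1.36 to 4.46 TPM). Atg10 led with the nonsense-mediated decay model Atg10-203 in replicate 1 (38.4%, against 21.9% in replicate 2) and with the coding Atg10-201 in replicate 2 (63.7%, against 37.4% in replicate 1), on 324 and 269 gene counts. For Atg10-203 the credibility bounds overlapped (4.42 to 9.83 TPM and 0.838 to 6.36 TPM), as they did for Atg10-201 (5.38 to 9.20 TPM and 7.68 to 12.1 TPM).

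The separate count table that the authors made with the older annotation, GENCODE M4, gave much lower counts for some members. Among 8946 protein-coding genes with at least 100 counts in both libraries, the older count was a median of 45.0% and 47.8% of the newer one. For the 31 members with as many counts the medians were 48.1% and 51.6%. For 389 of the 8946 genes (4.35%) the older count was under 5% of the newer one, and 2 members were among them, both of the ATG8 family. Map1lc3b had 101 and 100.0 older counts, or 1.64% and 1.92% of the newer ones. Gabarapl2 had 35 and 29, or 1.01% and 1.07%. Gabarap was at 16.4% and 19.99%, Atg12 at 10.1% and 11.0%, and Atg4a at 13.7% and 15.7%. At the other end Atg2a was at 77.4% and 78.9%. How the older counts were made is not given in the sources used here. Levels were therefore taken from the newer table alone.

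**Figure D4:**
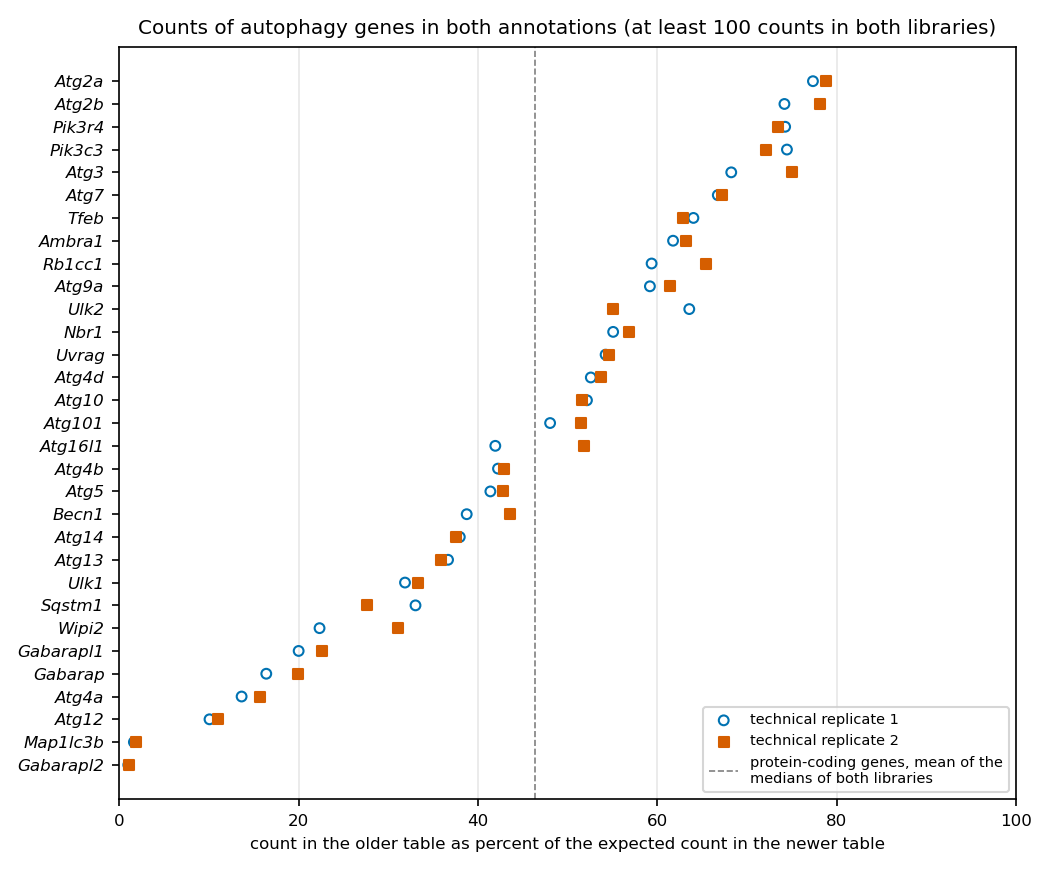
Count in the older gene table as percent of the expected count in the newer table for the 31 autophagy genes with at least 100 newer counts in both libraries, in technical replicate 1 (open circles) and 2 (squares). The dashed line is the mean of the median over protein-coding genes of both libraries. Map1lc3b and Gabarapl2 lie at or below 2%, and Atg2a lies highest in both libraries.

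TFEB and related factors bind the palindrome CACGTG, and the promoter windows of the members, 250 bases before to 50 after the annotated start (RefSeq, build GRCm38.p6), were searched for it, a motif that reads the same on both strands. Windows were present for 29 of the 35 members, 34 windows in all. CACGTG was found in 4 of the 34, those of Atg3, Atg5, Atg7 and Atg14, against 7.15% of 32851 windows. The extended form TCACGTGA, which contains CACGTG, was in 1 of the 34, that of Atg3, against 0.974% of all windows. Of these 4 genes only Atg3 was called by the exact binomial test, while 34.7% of all tested genes were called. The window of Atg3 (chr16:45158579-45158878, plus strand) is shown with both CACGTG matches, which begin 94 and 71 bases before the start, in capitals.
Atg3: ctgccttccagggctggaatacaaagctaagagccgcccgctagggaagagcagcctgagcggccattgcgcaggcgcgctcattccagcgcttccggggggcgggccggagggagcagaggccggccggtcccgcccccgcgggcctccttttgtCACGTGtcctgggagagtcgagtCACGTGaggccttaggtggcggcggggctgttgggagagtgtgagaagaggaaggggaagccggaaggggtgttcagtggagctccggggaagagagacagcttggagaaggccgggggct
A match is a description of the sequence. No binding was measured here.

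The rest of the pathway was examined with 6 further lists, 61 genes in all, of which 53 were detected. Of the 57 with enough counts, 17 were higher and 9 lower in replicate 2 by the exact binomial test (background 21.6% and 13.0%), and 7 were at least 1.5-fold higher (background 11.7%) and 0 at least 1.5-fold lower (background 2.98%). The number at least 1.5-fold higher is near its background. Calls without a fold limit depend on coverage, and 48.9% of all genes averaging 100 counts or more were called in either direction. The median log2 ratio was 0.01. Other core genes were detected in 8 of 9 cases, led by Tecpr1 (210 and 214.5 TPM), a tether of autophagosomes to lysosomes, Vmp1 (144 and 141 TPM), a scramblase of the endoplasmic reticulum, and Wdr45 (65.4 and 66.2 TPM), a WIPI relative. In this list 2 genes were higher, 1 was lower and 6 were not called.

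All 12 genes of autophagosome fusion were detected. Rab7, the late endosomal GTPase, was at 258 and 250.2 TPM, Vamp8, a lysosomal SNARE, at 247 and 228 TPM, and Vps16, a core subunit of tethering complexes, at 253 and 217 TPM. In this list 2 genes were higher (background 21.6%), 2 lower (background 13.0%) and 8 not called, and 0 were 1.5-fold apart (background 14.7%). Of 17 other cargo receptors 15 were detected, led by the mitochondrial receptors Bnip3l (436.5 and 404 TPM) and Fkbp8 (342 and 362 TPM) and by Tax1bp1 (260.1 and 217 TPM), a ubiquitin-binding receptor. Bnip3l stood above Sqstm1 in both libraries. Of the 16 tested, 4 were higher, 5 lower and 7 not called, against the same background shares.

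Of the mitophagy genes, the receptor kinase Tbk1 was at 89.1 and 78.7 TPM and the mitochondrial kinase Pink1 at 10.4 and 14.2 TPM. Tbk1 was lower and Pink1 higher in replicate 2. Of the 15 genes of mTORC1, TSC and AMPK, which restrain or trigger the ULK kinases, 13 were detected, led by the AMPK subunits Prkag1 (126 and 122 TPM) and Prkab1 (54.0 and 89.2 TPM) and by the mTORC1 activator Rheb (43.1 and 78.5 TPM). In this list 7 of 14 tested genes were higher (background 21.6%), 0 lower (background 13.0%) and 7 not called. At least 1.5-fold higher were 3 (background 11.7%). Among all genes averaging 100 counts or more, 48.9% were called in either direction. Of the MiT/TFE and FoxO factors, Tfe3, a paralog of Tfeb, was at 35.1 and 38.1 TPM, Foxo1 at 11.5 and 11.5 TPM and Foxo3 at 2.11 and 1.88 TPM, and Mitf and Tfec were under 1 TPM. Tfe3 was the one called, higher in replicate 2, and it was 3.92 and 2.15 times the level of Tfeb.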

How the data were processed

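Polyadenylated RNA of Treg cells was sequenced as 2 technical replicate libraries, grouped by the labels alone. Per the text files deposited by the authors, the gene and transcript tables used the build mm10 and the annotation GENCODE M21, and the older gene table GENCODE M4. Aligner, quantifier and strand setting are not given in the sources used here. Per the file headers, the authors deposited expected counts (estimated reads per gene), TPM and FPKM values (both scaled for length and depth), a signal of posterior mean TPM, and each transcript's percent of its gene. The older table deposited by the authors holds whole-number counts.

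Gene rows that name no gene (0.307% and 0.242% of counts) were left out. Expected counts were rounded. Library sizes were scaled with TMM (edgeR 4.0.16, factors 1.022 and 0.978). With 1 library against 1, a quasi-likelihood fit has no residual degrees of freedom, so a two-sided exact binomial test (scipy 1.17.1) was used per gene, with Benjamini-Hochberg adjustment and a threshold of 0.05, and 0.5 counts were added before log2 ratios. It was tested on simulated counts that varied by counting error alone, so that check does not cover variation between libraries beyond counting. The alternatives were other scalings (DESeq2 1.42.0), filters, tables and dispersions, and, chosen after seeing the data, removal of the GC trend in 20 bins. Every member is accounted for. Full statistics are given for members called and at least 1.5-fold apart, and of each other list the 3 genes of highest mean TPM are named, except 1 gene that is not reported here. Single transcripts and the overlapping genes named were chosen after their values were seen. The members and lists were chosen with earlier results of these data known. Promoter sequences are from RefSeq (GRCm38.p6), and transcript sequences are from GENCODE M21.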

Additional observations from a re-analysis of the deposited data

How the results depend on the processing

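Of the 32 detected members, close to as many were counted under each alternative: 30 members had at least 5 TPM in both libraries, 34 had a posterior mean TPM of at least 1, and 33 and 32 were detected without replicate 1 and without replicate 2. The median member level of 31.1 TPM lay between 30.95 and 33.1 TPM when either library was left out. The share of Map1lc3a among the ATG8 genes was 0.206% from posterior mean TPM, against 0.185% from TPM. The count of 18 called members was 16 to 17 with DESeq2 size factors, total counts, no filter, posterior mean counts or the GC trend removed. Its split of 14 higher and 4 lower became 11 and 5 with DESeq2 size factors and 11 and 6 with total counts or the GC trend removed. It was 10 in the older table (background 27.1%), 8 with edgeR's exactTest at a dispersion of 0.01 and 0 at 0.04, where fewer calls follow from the assumed dispersion. Among called members, ratios changed sign for Atg13 (-0.03), Pik3c3 (-0.01) and Gabarap (0.02) in the older table and for Atg2a (-0.10) with the GC trend removed. The cause was not tested. A further 5 members lost their call in the older table. The same leading transcript was found for 30 of 32 members from posterior mean TPM and for 28 of 31 members with at least 100 counts in both libraries. Leaving out a library leaves no comparison between libraries. No paired analysis was possible because there is 1 group. Depth limits Wipi1, Atg4c, Optn and Map1lc3a, each with 36 counts or fewer per library.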
